A study of Mus musculus with 8 samples.

Results

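The genes for the proteins of the cytosolic ribosome were followed across 4 genotypes of newborn mouse skin. Their probe sets were taken as those with a single gene symbol that starts with Rpl or Rps and a digit, or that is Rpsa, Rplp0, Rplp1 or Rplp2, without the S6 kinase genes (names that start with Rps6k) and without pseudogenes. This gave 99 probe sets for 47 genes, of 20380 single-symbol probe sets for 12393 genes. Of the 47, 21 encode proteins of the small subunit (53 probe sets) and 26 proteins of the large subunit (46 probe sets). The rule left out 6 probe sets of S6 kinase genes, 2 of pseudogenes and 102 ribosomal probe sets that carried several gene symbols. Rpl3, Rpl5 and Rpl10 had only probe sets of the last kind.

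RNA from whole skin of newborn mice (strain FVB) was hybridized to Affymetrix arrays, 2 for each genotype, and each array held a pool of 3 animals. The genotypes differ in the retinoblastoma protein pRb and its relative p107, which hold back E2F transcription factors and thereby DNA replication. Mice labelled pRb+/+ are the reference. Loss of pRb alone is labelled pRb-/-;p107+/+ and loss of p107 alone pRb+/+;p107-/-. Skin without either, labelled pRb-/-;p107-/-, is called double-null below. The pRb+/+ labels do not state the p107 genotype, which is taken as wild-type. The labels do not state in which skin cells the genes are deleted, what drives the deletion, or whether the 2 arrays of a genotype held separate pools, so p-values measure the spread between these arrays, which may be technical. All values are standardized scores: across the 8 arrays each probe set averages 0 with an SD of 1. Differences are therefore in units of each probe set's own SD, no score can exceed 2.47 in size, and neither a level nor a fold change can be read from the scores. The skin label could therefore not be checked against the levels of keratinocyte markers. In whole tissue, fewer cells of a type and less RNA per cell cannot be told apart.

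The cytosolic ribosome joins a small subunit, which reads the messenger RNA, and a large subunit, which forms the peptide bonds. Its proteins are made in near equal amounts from single-copy genes with many processed pseudogenes, and their messages typically start with a C followed by a run of pyrimidines, the 5′ terminal oligopyrimidine (TOP) motif, through which mTOR and the RNA-binding protein Larp1 set their translation. In skin, as elsewhere, ribosome output is tied to growth and proliferation, and free ribosomal proteins such as Rpl11 can bind Mdm2 and stabilize p53. An array for messenger RNA sees the amount of these messages and not their translation.

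RefSeq promoter sequence (mouse build GRCm38.p6, 250 bases before to 50 after an annotated start) was matched for 42 of the 47 genes. A start with C and at least 4 further pyrimidines was found in 8 of them. Those are shown because they carry the element that defines the class, as 30 bases from 10 before the start onward, 5′ to 3′ on the gene's strand, with the TOP motif in capitals. Rps10 and Rpl14 also passed the test described below. Rpl37a and Rpl22, which passed as well, have no such motif at the start in this table and stand at the end in lower case.
Rps10, chr17:27635225-27635254, minus strand: gcgcacgcccCTTCCTTTCCagcctccgcc
Rpl14, chr9:120571507-120571536, plus strand: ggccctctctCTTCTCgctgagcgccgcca
Rps6, chr4:86857348-86857377, minus strand: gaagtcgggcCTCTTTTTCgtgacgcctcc
Rps18, chr17:33955646-33955675, minus strand: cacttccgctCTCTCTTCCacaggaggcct
Rps27, chr3:90213629-90213658, minus strand: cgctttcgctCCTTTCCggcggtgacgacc
Rpl35, chr2:39005112-39005141, minus strand: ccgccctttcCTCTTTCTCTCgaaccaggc
Rpl38, chr11:114668570-114668599, plus strand: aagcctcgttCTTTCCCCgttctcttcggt
Rplp2, chr7:141447641-141447670, plus strand: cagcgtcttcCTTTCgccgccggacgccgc
Rpl37a, chr1:72711250-72711279, plus strand: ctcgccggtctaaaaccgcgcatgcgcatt
Rpl22, chr4:152325716-152325745, plus strand: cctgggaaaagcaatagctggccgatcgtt

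The TOP motif at the start was present in 19.0% of the matched ribosomal protein promoters, against 2.49% of all 27025 promoters in the table. A tract of the same kind lay somewhere in the 30 bases around the start in 64.3% against 35.8%. Short motifs were searched on both strands of the 300 bases, each on its own, so that matches of different motifs may overlap. The ETS core CCGGAAG was found in 21 of 42 promoters (50% against 9.12% of all and 14.9% of those of other genes on the array). It is bound by ETS family factors such as GABP, and it is shown in capitals for 4 of the genes above, on the gene's strand, where Rpl35 has it as the reverse complement.
Rps10, chr17:27635255-27635284, minus strand: agccgcgcagcCCGGAAGagacgctgcgcc
Rps6, chr4:86857440-86857469, minus strand: ttaatctacgcCCGGAAGtaacgcccctct
Rpl38, chr11:114668549-114668578, plus strand: gggttaaccgtCCGGAAGcggaagcctcgt
Rpl35, chr2:39005240-39005269, minus strand: ggaaggcaggaCTTCCGGgaagcggagggc
Of the E2F cores, TTTCCCGC was in 1 of 42 promoters (2.38% against 1.11% of all and 1.79% of other genes on the array) and TTTGGCGC in 0 (against 0.537% and 0.915%). The SP1 core GGGCGG was in 54.8% against 35.9% of all and 57.5% of other genes on the array, the YY1 motif AAGATGGC in 7.14% against 2.88% and 3.96%, and TATAAA in 11.9% against 14.2% and 10.1%. A match here is a string of letters in 1 annotated promoter per gene and not a measured binding site.

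The probe sets of these genes are unlike the rest of the array in how they were named. Endings in _x_at, which mark probe sets whose probes may also match other sequences, were carried by 40.4% of the 99 against 6.68% of all tested probe sets, and the plain _at ending by 29.3% against 69.0%. With so many processed pseudogenes, a ribosomal probe set can take up more than 1 transcript, and each value below is that of its probe set. The arrays also differed outside the mouse genes. The 24 poly-A control probe sets averaged 0.19 to 1.38 on the 4 arrays not labelled p107-/- and -0.96 to -0.55 on the p107-/- arrays, so that p107 loss and this difference cannot be told apart. The 18 hybridization controls averaged 2.05 on replicate 2 of pRb+/+ and at most 0.37 on the other arrays. The 3 beta-actin control probe sets averaged -1.0 and -1.08 in double-null and 1.21 and 1.41 in pRb-/-;p107+/+ skin. The 3 Gapdh control probe sets averaged -1.47 and -1.52 on the pRb+/+ arrays against -0.03 to 0.84 on the other 6. Their part in the results below was not tested.

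Ribosomal protein probe sets were highest on the pRb+/+ arrays and lowest on the double-null arrays. Their median score was 0.59 and 0.63 in pRb+/+ skin. It was 0.32 and 0.06 with p107 lost, -0.07 and -0.20 with pRb lost, and -0.26 and -0.80 in double-null skin. Over all tested probe sets the medians ran from -0.25 to 0.22. The genotype means of these medians were 0.61 ± 0.03 (SD, n = 2 arrays), 0.19 ± 0.18, -0.13 ± 0.10 and -0.53 ± 0.38 in that order, and no array of a genotype overlapped with those of another. The pRb+/+ mean was the highest of the 4 for 49 of 99 probe sets (23.5% of all probe sets), and the double-null mean was the lowest for 47 (30.1% of all). The pRb-/-;p107+/+ mean was the lowest for a further 34 (22.9% of all). A single array stood out: replicate 2 of the double-null skin held the lowest score of all 8 arrays for 38 probe sets, against 16.8% of all probe sets. With 1 probe set for each gene the order changed at the top, with array medians of 0.59 and 0.08 in pRb+/+ and 0.64 and 0.29 in pRb+/+;p107-/- skin, and the double-null arrays stayed lowest at -0.28 and -0.51.

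**Figure D1:**
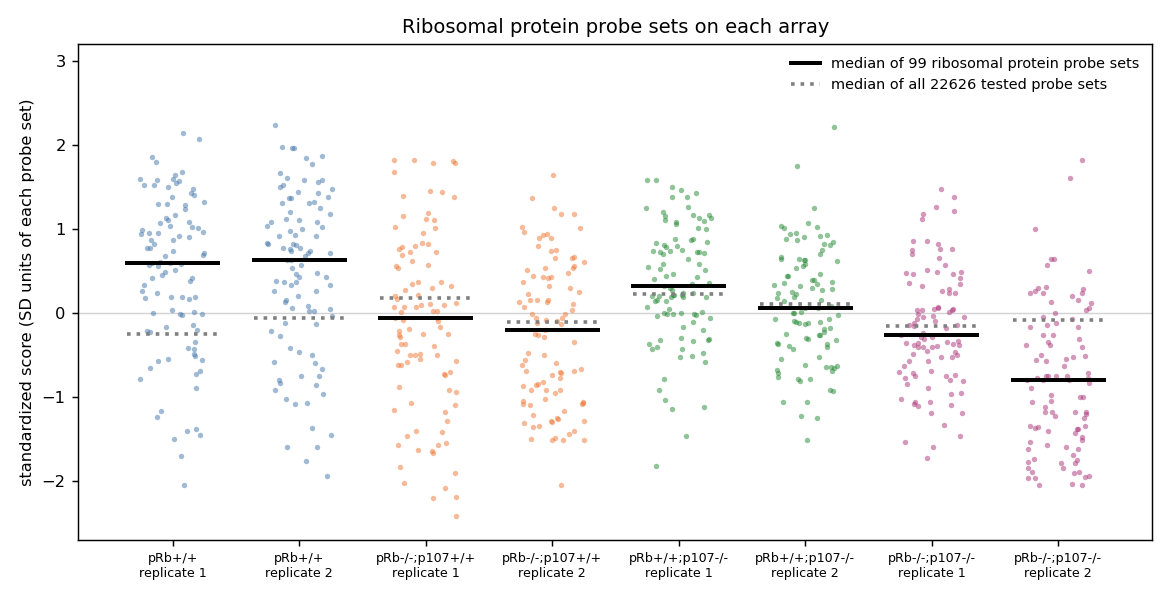
Standardized score (vertical axis, SD units) of each of the 99 ribosomal protein probe sets on the 8 arrays, coloured by genotype. Black bars are the medians of these probe sets, from 0.63 on a pRb+/+ array to -0.80 on a double-null array, and dotted grey bars are the medians of all 22626 tested probe sets.

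Loss of both proteins gave the lowest ribosomal protein scores relative to pRb+/+ skin. The difference was negative for 77 of 99 probe sets (47.7% of all probe sets), with a median of -1.14 against 0.10 over all. In this comparison 3 probe sets passed the test, all of them lower: those of Rpl37a, Rpl22 and Rps10 (limma linear model without moderation, Benjamini-Hochberg adjusted over 22626 probe sets, 2.94% of which passed in either direction and 1.54% lower). At an unadjusted p under 0.05, 20 probe sets were lower and 3 higher, where all probe sets had 11.5% lower and 10.8% higher. The arrays of the 2 genotypes did not overlap for 52 lower and 7 higher probe sets, against 26.9% and 28.5% of all. For loss of both the subunits gave similar figures, with 40 of 53 negative and a median of -1.03 for the small subunit and 37 of 46 negative and a median of -1.27 for the large. They lay further apart for p107 loss in pRb-/- skin. There the small subunit had 25 of 53 negative and a median of 0.085, and the large 33 of 46 and -0.60. For p107 loss averaged over pRb status the medians were -0.12 and -0.67. In pRb+/+ skin p107 loss gave closer figures, with 31 of 53 negative and a median of -0.34 for the small subunit and 27 of 46 and -0.54 for the large. The difference between the subunits was not tested. The 3 calls rest on the test without moderation and on the full set of arrays. With limma's moderated test 0 of 99 (and 0 of all probe sets) were called. Without either pRb-/-;p107+/+ array 1 call was left, that of Rpl37a, and without any of the other 6 arrays 0 were left. Without either double-null array 0 of all probe sets passed.

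**Figure D2:**
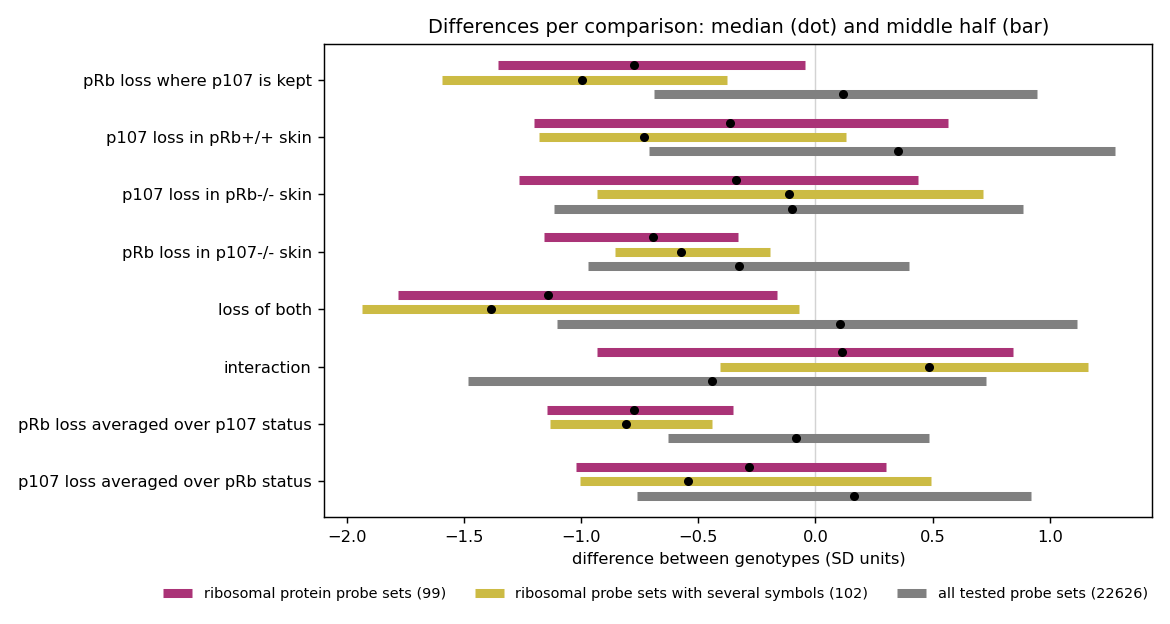
Differences between genotypes in SD units (horizontal axis) for each comparison: dots are medians and bars span the 25th to 75th percentile. Ribosomal protein probe sets have a median of -1.14 for loss of both proteins and all tested probe sets 0.10. The 102 ribosomal probe sets with several gene symbols, which are not among the 99, have -1.38.

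Rpl37a, a small zinc-binding protein of the large subunit, had the smallest adjusted p of the 99. Its probe set 1416217_a_at scored 0.69 and 0.76 in pRb+/+ skin, 0.86 and 0.63 with p107 lost, -0.09 and 0.23 with pRb lost and -1.54 on each double-null array. The 2 double-null values are identical, with an SD of 0 that enters the SE of every Rpl37a difference below, and they are the only identical values between these arrays. The double-null arrays lay far below all others, while the p107-/- and pRb+/+ arrays overlapped. It fell by 2.26 ± 0.14 (SE) with loss of both proteins (limma linear model without moderation, adjusted p = 0.0181). It also fell by 2.29 ± 0.14 with pRb loss in p107-/- skin (adjusted p = 0.0457) and by 1.61 ± 0.14 with p107 loss in pRb-/- skin (adjusted p = 0.0403), comparisons that share the double-null arrays. It was the only 1 of the 99 to pass the F test over the 4 genotypes (limma without moderation, adjusted p = 0.0369, 1.28% of all passing). The other probe sets of Rpl37a differed by -2.31 (1460543_x_at) and -0.68 (1416218_x_at) for loss of both, and neither passed.

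Rpl22, an RNA-binding protein of the large subunit known for its part in T cell development, stepped down over the genotypes. Probe set 1448398_s_at scored 1.08 and 1.30 in pRb+/+, 0.09 and 0.32 in pRb-/-;p107+/+, -0.01 and -0.00 in pRb+/+;p107-/- and -1.08 and -1.69 in double-null skin. Both single genotypes lay between the pRb+/+ and the double-null arrays, without overlap with either. It fell by 2.58 ± 0.24 with loss of both (limma linear model without moderation, adjusted p = 0.033). The second Rpl22 probe set, 1416603_at, differed by -2.09 ± 0.75 and did not pass (adjusted p = 0.222). Its paralog Rpl22l1 scored 1.64 and 0.78 in pRb+/+ and -0.58 and -1.62 in double-null skin, also without overlap, and its difference of -2.31 ± 0.57 did not pass (adjusted p = 0.131).

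Among small subunit proteins, Rps10, which sits in the head of the subunit and is mutated in some patients with Diamond-Blackfan anemia, had 6 probe sets. Probe set 1416719_a_at scored 1.59 and 1.55 in pRb+/+, -0.50 and -0.26 in pRb-/-;p107+/+, -0.17 and -0.69 in pRb+/+;p107-/- and -0.97 and -0.55 in double-null skin. The pRb+/+ arrays stood alone and the other 3 genotypes overlapped. It fell by 2.33 ± 0.25 with loss of both (limma linear model without moderation, adjusted p = 0.0406). Of the other Rps10 probe sets, 4 had a negative difference (-2.34 to -1.62) and 1436384_at had one of 0.72, from -0.65 and -1.60 in pRb+/+ to -1.06 and 0.24 in double-null skin. None of these 5 passed.

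Rps6, the small subunit protein that S6 kinases phosphorylate, followed the same outline as the called Rps10 probe set in its probe set 1416142_at. It scored 1.24 and 1.84 in pRb+/+, -0.50 and -0.77 in pRb-/-;p107+/+, 0.06 and -0.64 in pRb+/+;p107-/- and -0.45 and -0.78 in double-null skin. The pRb+/+ arrays were again above all 6 others. The difference for loss of both was -2.16 ± 0.36, which did not pass (limma linear model without moderation, adjusted p = 0.0736), and the second Rps6 probe set, 1453466_at, differed by -0.61 ± 1.10. Rps15 (1416088_a_at, -2.37) and Rps24 (1456628_x_at, -2.36) were the most negative small subunit probe sets, and neither passed. Rps19, the gene most often mutated in Diamond-Blackfan anemia, differed by -1.56 ± 0.94, and Rpsa, also known as the laminin receptor, by 0.41 ± 1.10 and -0.94 ± 0.52 in its probe sets. The X-linked Rps4x differed by -0.97 ± 0.94 and 0.89 ± 1.05. Rps27 differed by 1.05 ± 1.10 and its p53-inducible paralog Rps27l by -1.94 ± 0.60, -1.60 ± 0.85 and 0.10 ± 1.14. None of these passed.

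In the large subunit, the stalk proteins recruit elongation factors. The stalk base Rplp0, often used as a reference gene in quantitative PCR, scored 0.19 and 2.24 in pRb+/+ and -0.78 and -1.07 in double-null skin, a difference of -2.13 ± 0.75 that did not pass (limma linear model without moderation, adjusted p = 0.218). The 2 pRb+/+ arrays differed from each other by about as much as the genotypes. The stalk protein Rplp2 differed by -1.79, Rpl11, the Mdm2-binding protein, by -1.13 ± 0.81, and Rpl27 by -2.48 ± 0.46 in 1448217_a_at, the second most negative of all 99 (adjusted p = 0.085). Rpl7l1, a relative of Rpl7, differed by -1.75 ± 0.88 and -0.73 ± 0.82. Rpl39 differed by 0.48 ± 1.01 and its paralog Rpl39l by -1.16 ± 0.64. None of these passed the test.

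The most positive probe set was that of Rpl3l, the paralog of Rpl3 made in striated muscle. It scored -1.50 and -1.60 in pRb+/+, 0.56 and 1.02 in pRb-/-;p107+/+, 0.58 and 0.01 in pRb+/+;p107-/- and 0.28 and 0.64 in double-null skin. The pRb+/+ arrays lay far below the other 6, the reverse of the Rps10 and Rps6 outline. Its difference was 2.01 ± 0.29 for loss of both (limma linear model without moderation, adjusted p = 0.0579) and 2.34 ± 0.29 for pRb loss where p107 was kept (adjusted p = 0.133), and neither passed. The 16 skeletal muscle markers, given beside it because Rpl3l is a muscle gene, had array medians of -0.78 and 0.50 in pRb+/+, 0.93 and 1.18 in pRb-/-;p107+/+, 0.13 and 0.03 in pRb+/+;p107-/- and -0.59 and -0.43 in double-null skin. The double-null arrays were low for these markers and not for Rpl3l. The next most positive probe sets were those of Rps3 (1.54 ± 0.77), Rpl13a (1417608_a_at, 1.51 ± 0.52) and Rps18 (1421838_at, 1.31 ± 0.92), and none passed.

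**Figure D3:**
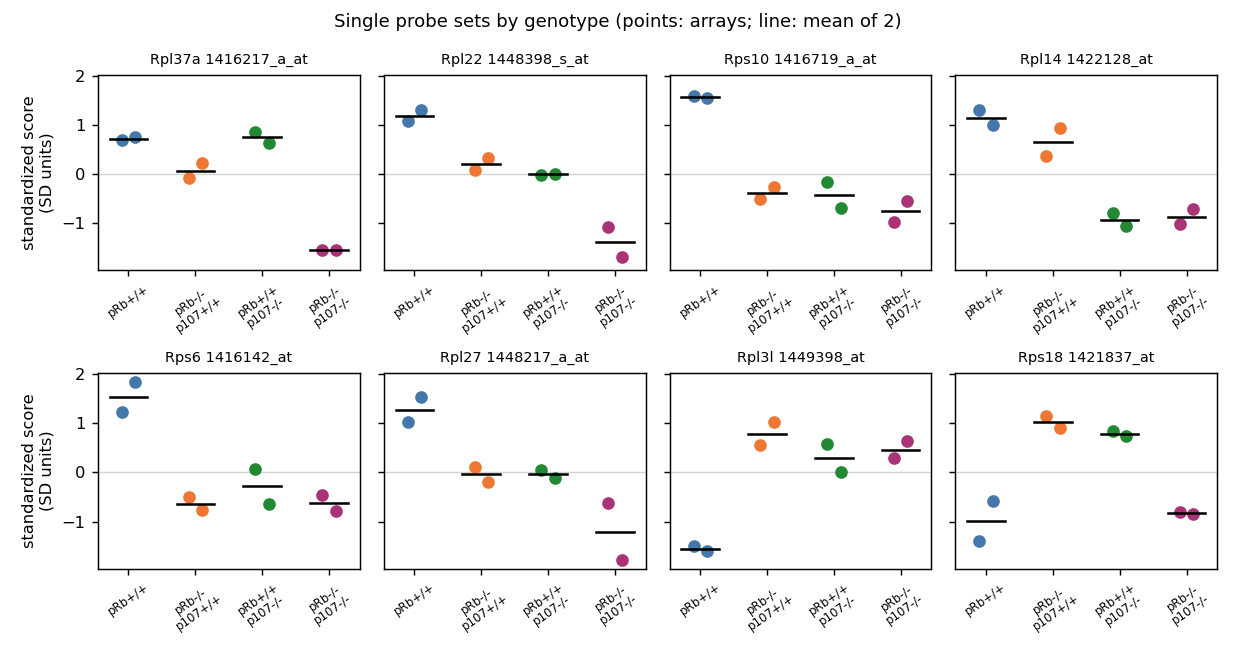
Standardized scores (vertical axis, SD units) of 8 single probe sets by genotype, with a point per array and a line at the mean of the 2 arrays. Rpl37a is low only in double-null skin (-1.54 on each array), Rps10 and Rps6 are high only in pRb+/+ skin, and Rpl3l is lowest there (-1.50 and -1.60).

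Loss of pRb lowered no single probe set past the threshold where p107 was kept, though most differences were negative. The poly-A controls differed there too, from 0.30 and 0.19 to 1.38 and 1.13, and their part was not tested. In this comparison 75 of 99 probe sets had a negative difference (46.3% of all), with a median of -0.78 against 0.12 over all. No probe set passed (limma linear model without moderation, 0 of 99 and 0% of all), 11 were lower and 4 higher at an unadjusted p under 0.05 (5.13% and 8.24% of all), and the moderated test also called 0. The arrays did not overlap for 41 lower and 4 higher probe sets, against 17.4% and 23.0% of all. The most negative were Rpsa 1448245_at (-2.34 ± 0.52), Rps6 1416142_at (-2.18 ± 0.36), Rps24 1436064_x_at (-2.14 ± 0.67) and Rps18 1448739_x_at (-2.12 ± 0.74). The most positive beside Rpl3l were Rps10 1436384_at (2.06 ± 0.64), Rps18 1421837_at (2.01 ± 0.30) and Rpsa 1416196_at (1.39 ± 1.10). Rps18 and Rpsa thus appear at both ends through different probe sets. The other 5 Rps10 probe sets were negative, without being among the 4 most negative.

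In p107-/- skin, pRb loss gave a negative difference for 86 of 99 probe sets, but 62.6% of all probe sets were negative there too. The median was -0.70 against -0.33 over all. The Rpl37a probe set named above was the only call (limma linear model without moderation, 1 of 99, against 0.256% of all and 0.0796% lower). At an unadjusted p under 0.05, 6 were lower and 0 higher (7.27% and 4.72% of all). The moderated test called 0, and so did the test without moderation when any of the 8 arrays was left out. The arrays did not overlap for 47 lower and 2 higher probe sets, against 33.7% and 17.2% of all. The most negative after Rpl37a were Rpl11 (-2.06 ± 0.81), Rpl35 1454833_at (-2.02 ± 0.62) and Rpl38 (-1.74 ± 0.85), a protein known for its part in the translation of Hox messages. The most positive were Rpl27a 1437729_at (1.56 ± 1.07), Rps20 1450417_a_at (1.36 ± 1.04), Rpl13a 1433928_a_at (0.95 ± 1.00) and Rps20 1456373_x_at (0.70 ± 0.93). This comparison leaned on replicate 2 of the double-null skin: without it the median was -0.40 against -0.35 over all.

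Averaged over p107 status, pRb loss gave a negative difference for 86 of 99 probe sets (53.8% of all), with a median of -0.77 against -0.08. No probe set passed (limma linear model without moderation, 0 of 99 against 0.181% of all), 11 were lower and 1 higher at an unadjusted p under 0.05 (6.66% and 6.51% of all), and the moderated test called 0. The lowest were Rps25, a protein needed for some internal ribosome entry sites (-1.69 ± 0.40), Rpl35 1454833_at (-1.59 ± 0.44), Rps18 1455572_x_at (-1.51 ± 0.53) and Rpl37a 1416217_a_at (-1.47 ± 0.10, adjusted p = 0.0521). The most positive were Rpl3l (1.25 ± 0.21), Rps20 1450417_a_at (1.01 ± 0.73), Rpl27a 1437729_at (0.77 ± 0.75) and Rpsa 1416196_at (0.73 ± 0.78). All 4 arrays of pRb-/- skin lay below all 4 of pRb+/+ skin for 5 probe sets and above them for 0, against 2.24% and 1.97% of all. Without replicate 2 of the double-null skin the median was -0.56.

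Loss of p107 coincides with the poly-A control difference. In pRb+/+ skin 58 of 99 probe sets were negative (41.2% of all), with a median of -0.36 against 0.35 over all. No probe set passed (limma linear model without moderation, 0 of 99 against 0.42% of all, 0.217% lower and 0.203% higher), with 7 lower and 4 higher at an unadjusted p under 0.05 (7.69% and 11.7% of all), and the moderated test called 0. The arrays did not overlap for 36 lower and 17 higher probe sets (22.1% and 35.2% of all). With 1 probe set for each gene the median was 0.16 against 0.40 over all genes, and 17 of 47 were negative (39.5% of all genes). The sign of the group median thus turned with the choice of probe sets, while it stayed below the median over all. Rps2 (2.53 ± 0.38), Rps24 1436500_at (1.94 ± 0.80) and Rps18 1421837_at (1.78 ± 0.30) were the most positive beside Rpl3l, and Rpl14 (-2.07 ± 0.27), Rps10 1416719_a_at (-2.0 ± 0.25), Rps6 1416142_at (-1.83 ± 0.36) and Rps20 1456373_x_at (-1.77 ± 0.93) the most negative.

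In pRb-/- skin p107 loss gave 58 negative of 99 (52.7% of all), a median of -0.34 against -0.10, and the Rpl37a call (1 of 99, limma linear model without moderation, against 1.37% of all, 0.822% lower and 0.548% higher). At an unadjusted p under 0.05, 10 were lower and 1 higher (11.4% and 7.77% of all), and the arrays did not overlap for 28 lower and 12 higher (28.2% and 22.9%). The call was lost when any of the 8 arrays was left out, and the median was -0.036 without replicate 2 and -0.70 without replicate 1 of the double-null skin, and -0.17 without replicate 1 and -0.54 without replicate 2 of pRb-/-;p107+/+. Rps27l 1450925_a_at (-2.08 ± 0.60), Rps15 1416089_at (-2.0 ± 0.80), Rpl27 1453096_x_at (-1.94 ± 0.58) and Rps9 1434624_x_at (-1.89 ± 0.79) were the most negative and did not pass. Rpl13a 1417608_a_at (1.70 ± 0.52), Rps3 (1.59 ± 0.77), Rps7 1435593_x_at (1.59 ± 0.80) and Rpl6 (1.47 ± 0.93) were the most positive.

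Averaged over pRb status, 3 of 99 probe sets fell with p107 loss (limma linear model without moderation, against 3.04% of all and 1.78% lower). They were those of Rpl14, Rpl22 (1448398_s_at) and Rpl37a (1416217_a_at). Rpl14, a large subunit protein with a single probe set, scored 1.29 and 0.99 in pRb+/+, 0.37 and 0.94 in pRb-/-;p107+/+, -0.79 and -1.07 in pRb+/+;p107-/- and -1.02 and -0.72 in double-null skin. All 4 p107-/- arrays lay below the other 4, and the 2 p107-/- genotypes overlapped. It fell by 1.8 ± 0.19 (adjusted p = 0.0397), Rpl22 by 1.39 ± 0.17 (adjusted p = 0.0476) and Rpl37a by 0.79 ± 0.10 (adjusted p = 0.0481). For Rpl37a the difference was 0.027 ± 0.14 in pRb+/+ skin and -1.61 ± 0.14 in pRb-/- skin, so the averaged value comes from the double-null arrays. All 3 calls were lost with limma's moderated test and when any of the 8 arrays was left out. At an unadjusted p under 0.05, 17 were lower and 4 higher (12.1% and 12.7% of all), and the arrays did not overlap for 10 lower and 2 higher (8.23% and 7.51%). Next lowest were Rps24 1453362_x_at (-1.62 ± 0.36), Rpl37a 1460543_x_at (-1.60 ± 0.33) and Rplp2 (-1.58 ± 0.47), and highest Rpl13a 1417608_a_at (1.71 ± 0.37), Rps3 (1.52 ± 0.54), Rps24 1436500_at (1.35 ± 0.56) and Rps18 1421838_at (1.33 ± 0.65). The group as a whole had 58 negative of 99 and a median of -0.29 against 0.17 over all, which was -0.60 without replicate 1 and -0.18 without replicate 2 of the double-null skin.

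The interaction, which asks whether pRb loss differs with p107 status, was not called for any probe set (limma linear model without moderation, 0 of 99 and 0% of all), with 5 lower and 2 higher at an unadjusted p under 0.05 (8.76% and 4.34% of all), and the moderated test called 0. The median was 0.11 against -0.44 over all. It was -0.32 without replicate 1 and 0.41 without replicate 2 of the double-null skin, -0.023 without replicate 1 of pRb+/+, -0.14 without replicate 2 of pRb-/-;p107+/+ and -0.11 without replicate 2 of pRb+/+;p107-/-. The largest was that of Rps18 1421837_at, which scored -1.39 and -0.59 in pRb+/+, 1.15 and 0.89 in pRb-/-;p107+/+, 0.84 and 0.74 in pRb+/+;p107-/- and -0.81 and -0.84 in double-null skin. Either single genotype was high and the pRb+/+ and double-null arrays were low. Its interaction was -3.62 ± 0.42 (limma linear model without moderation, adjusted p = 0.122). Rps10 1436384_at was next (-3.08 ± 0.91), though its double-null arrays were not both low. Rps2 (-2.55 ± 0.54) and Rpl11 (-2.24 ± 1.15) followed, while Rps26 (2.34 ± 1.10), Rps20 1456373_x_at (2.15 ± 1.31), Rpl13a 1433928_a_at (2.10 ± 1.41) and Rpsa 1448245_at (1.96 ± 0.73) were the most positive.

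The scale of the arrays moved these medians. With the median of each array subtracted, the median over all probe sets shifted from 0.35 to 0.037 for p107 loss in pRb+/+ skin, from -0.33 to -0.048 for pRb loss in p107-/- skin and from -0.44 to 0.024 for the interaction, and by less in the others. The ribosomal medians then were -1.17 for loss of both, -0.96 for pRb loss where p107 was kept, -0.68 for p107 loss in pRb+/+ skin and -0.42 for pRb loss in p107-/- skin. The 3 calls for loss of both passed on this scale, where 606 probe sets passed in all.

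Several probe sets of a gene can be read as repeated measurements of it, and for these genes they often differed. Of the 47 genes, 24 had 1 probe set and 23 had 2 or more, 75 probe sets in all, with 6 each for Rps10, Rps18, Rps24 and Rpl35. The 108 pairs within these 23 genes had a median Pearson r of 0.30 over the 8 arrays (25th to 75th percentile -0.08 to 0.60), and 76 pairs (70.4%) were positive. The 12713 pairs of other genes had a median of 0.19, with 63.1% positive. Pairs share arrays and some share target sequence, so these values describe the arrays at hand. When probe sets ending in _x_at or _s_at were set aside, 19 pairs were left with a median r of 0.17, close to the 0.16 of other genes. The 29 pairs in which both names end in _x_at had a median of 0.59 and 28 were positive, against 0.46 and 78.2% in other genes.

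The highest r within a gene was 0.96, between a pair of the Rpl35 probe sets, all 15 pairs of which were positive. Rpl7 followed with 0.91 and Rps10 with 0.90. The lowest were -0.75 in Rps20, -0.61 in Rps24 and -0.59 in Rps4x. In Rps10, 1436384_at ran against 4 of its 5 partners (r from -0.52 to 0.01 over the 5), while the 10 pairs among the other probe sets were all positive (0.39 to 0.90). Rps9 was the only gene with 3 or more probe sets and no positive pair (-0.38 to -0.18). Rps27l (median r 0.23), Rps28 (0.59), Rps29 (0.56), Rpl27 (0.52), Rpl37a (0.40), Rpl41 (0.31), Rpl13a (0.11), Rps18 (0.15) and Rpl7 (-0.14) are the other genes with 3 or more probe sets, beside Rpl35 (0.55), Rps10 (0.51), Rps24 (0.11) and Rps20 (-0.079). Rpl37a, with a called probe set, had pairs from 0.13 to 0.65.

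**Figure D4:**
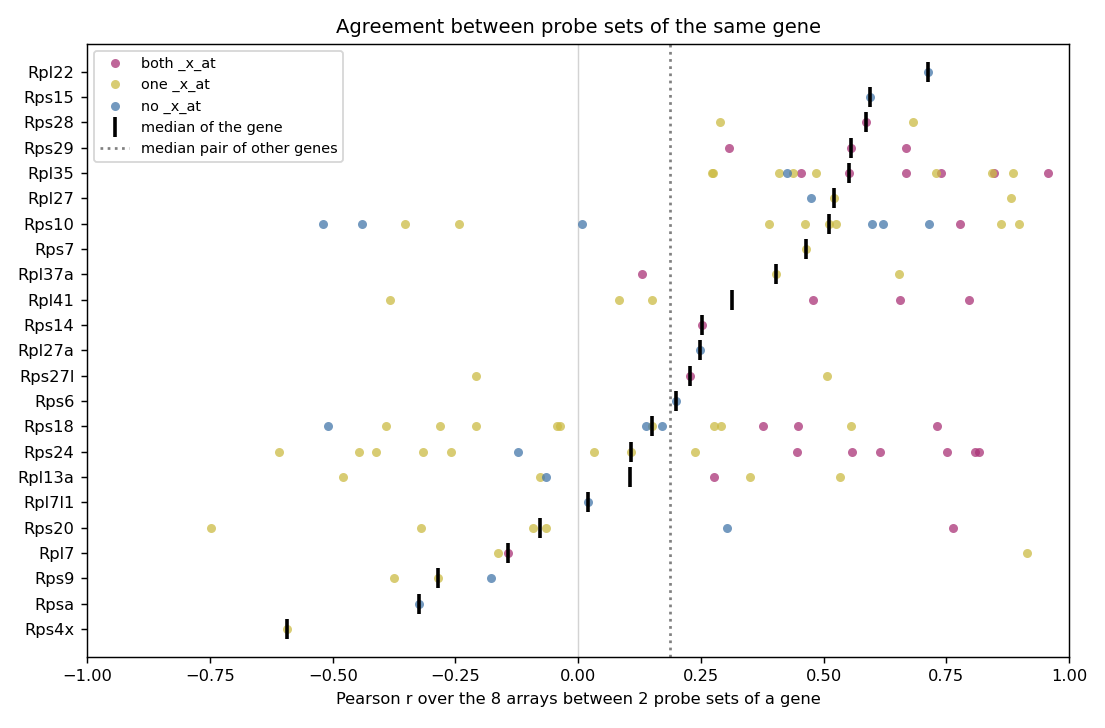
Pearson r over the 8 arrays (horizontal axis) between each pair of probe sets of the same gene, for the 23 ribosomal protein genes with 2 or more probe sets. Points are coloured by how many of the pair end in _x_at, ticks are gene medians, and the dotted line at 0.19 is the median pair of other genes. Pairs in which both end in _x_at lie mostly to the right, and Rps4x (-0.59) is the lowest gene.

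The sign of the difference was compared within each gene. All probe sets of a gene had 1 sign in 17 of 23 genes for pRb loss in p107-/- skin, every one negative, and in 15 of 23, every one negative, for pRb loss averaged over p107 status. The shares of other genes with 1 sign were 58.9% and 47.5%. For loss of both, 12 of 23 genes had 1 sign, of which 11 were negative, against 48.2% of other genes. For p107 loss averaged over pRb status only 6 of 23 did, 3 in each direction, against 48.2%. The differences between these shares were not tested.

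Between genes the agreement was weak. With 1 probe set for each of the 47 genes, the median r over 1081 gene pairs was 0.13, against 0.031 over all genes and 0.14 over the 74 mitochondrial ribosomal protein genes, each over 8 arrays. The probe sets most like the mean of the other 46 genes were those of Rpl27 (1448217_a_at, r = 0.85), Rpl37a (1416217_a_at, 0.84), Rps24 (1456628_x_at, 0.83), Rps14 (1437706_x_at, 0.83) and Rpl13a (1455001_x_at, 0.81), and the least like it was Rpl3l (-0.68). The likeness moved with the kind of probe set: its median was 0.050 over the 29 plain _at probe sets, 0.54 over the 28 ending in _a_at and 0.53 over the 40 ending in _x_at. The difference for loss of both also varied between these endings, with medians of -0.70, -1.14 and -1.46 in that order. Over all probe sets the same endings had 0.18, 0.15 and -0.75, so for _x_at probe sets the array as a whole was lower too. With 1 probe set for each gene, chosen by name with _at first, 32 of 47 genes were negative for loss of both, with a median of -0.93 against 0.14 over all genes. The part of the probe set kind in the shift was not tested.

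The 102 ribosomal probe sets with several gene symbols were examined after the first results were seen, as a set the rule had left out. Their median was -1.38 for loss of both, with 78 negative and 4 lower calls (47.7% and 1.54% of all probe sets). It was -1.0 for pRb loss where p107 was kept, with 83 negative (46.3% of all), and -0.57 in p107-/- skin, with 90 negative (62.6% of all). They lie in the same direction as the 99 in each of these, and may share target sequence with them.

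The promoter features were set against the differences. For loss of both the 8 genes with a TOP motif at the start had a median of -1.50 with 5 negative, from -2.16 for Rps6 to 1.05 for Rps27. The other 34 matched genes had a median of -1.0 with 22 negative. For pRb loss where p107 was kept, 3 of the 8 and 24 of the 34 were negative. In p107-/- skin pRb loss gave 7 of the 8 and 27 of the 34 negative, with medians of -0.76 and -0.69. For p107 loss averaged over pRb status 5 of the 8 and 17 of the 34 were negative. The 21 genes with the ETS core had a median of -1.13 with 14 negative and the 21 without it -0.97 with 13 negative. Each gene stands here by 1 probe set, and Rps10 by 1436384_at, the probe set that runs against its others. Rps18, also among the 8, stands by 1421837_at. That probe set rose by 2.01 for pRb loss where p107 was kept, while 4 of the 6 Rps18 probe sets were negative.

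Other genes of ribosome production were read with 1 probe set per gene. Of all 12393 genes on this scale, 46.7% were negative for loss of both, with a median of 0.14. At an unadjusted p under 0.05, 1302 of them were lower and 1267 higher, and 198 fell and 160 rose past the threshold. Of the 74 mitochondrial ribosomal protein genes, which serve the separate ribosome of mitochondria, 55 had a negative difference for loss of both, with a median of -0.71. None fell and Mrps2 rose, by 1.84 ± 0.14 (limma linear model without moderation, adjusted p = 0.0236). Mrps2 scored -1.10 and -1.06 in pRb+/+, -0.93 and -0.57 in pRb-/-;p107+/+, 1.02 and 1.13 in pRb+/+;p107-/- and 0.68 and 0.83 in double-null skin, high on every p107-/- array. All 13 genes of RNA polymerase I and its factors, which make the ribosomal RNA, were negative, with a median of -0.90, and 0 passed, 1 being lower at an unadjusted p under 0.05 (Polr1e, -1.8 ± 0.36, adjusted p = 0.0947). Of 45 ribosome biogenesis genes 28 were negative (median -0.58) and 0 passed, 3 being lower at an unadjusted p under 0.05 (Lyar, -2.36 ± 0.53, adjusted p = 0.111). For loss of both, limma's moderated test called none in these or the following lists, nor did the test without moderation when either double-null array was left out.

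The translation factors were less one-sided. Of 17 other genes with TOP messages, such as the elongation factor gene Eef1a1 (1.78 ± 0.60, adjusted p = 0.205, limma linear model without moderation), 9 were negative for loss of both, with a median of -0.016. Of 37 initiation factor genes 20 were negative (median -0.37), and the closest to the threshold was Eif3k (-2.48 ± 0.38, adjusted p = 0.0625). None passed in either list. At an unadjusted p under 0.05 the first list had 0 lower and 1 higher and the second 3 lower and 4 higher. Of all 12393 genes 1302 were lower and 1267 higher at that level, and 46.7% were negative. The 47 ribosomal protein genes had -0.93 on the same scale, and the difference between the lists was not tested.

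Upstream regulators held a few calls. With 1 probe set per gene, 358 of 12393 genes passed for loss of both, 198 lower and 160 higher. In the list of mTOR pathway and S6 kinase genes, 2 of 12 changed. Larp1, the TOP message binding protein, scored 1.29 and 1.45 in pRb+/+, 0.08 and 0.46 in pRb-/-;p107+/+, -0.53 and -0.82 in pRb+/+;p107-/- and -0.69 and -1.26 in double-null skin. It fell by 2.34 ± 0.27 (limma linear model without moderation, adjusted p = 0.0434). Ddit4, an mTOR inhibitor induced by stress, scored -0.55 and -0.74 in pRb+/+, -0.79 and -1.05 in pRb-/-;p107+/+, 0.05 and 0.12 in pRb+/+;p107-/- and 1.38 and 1.58 in double-null skin, and rose by 2.12 ± 0.14 (adjusted p = 0.019). In the Myc family 1 of 9 changed: Mycl rose by 2.44 ± 0.28 (adjusted p = 0.0425). None of 8 genes of p53 and its response passed, with 1 lower and 2 higher at an unadjusted p under 0.05 and Ccng1 closest (1.43 ± 0.26, adjusted p = 0.085), and 6 of 8 were positive. Of all 12393 genes 53.3% were positive, and 1302 were lower and 1267 higher at an unadjusted p under 0.05.

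**Figure D5:**
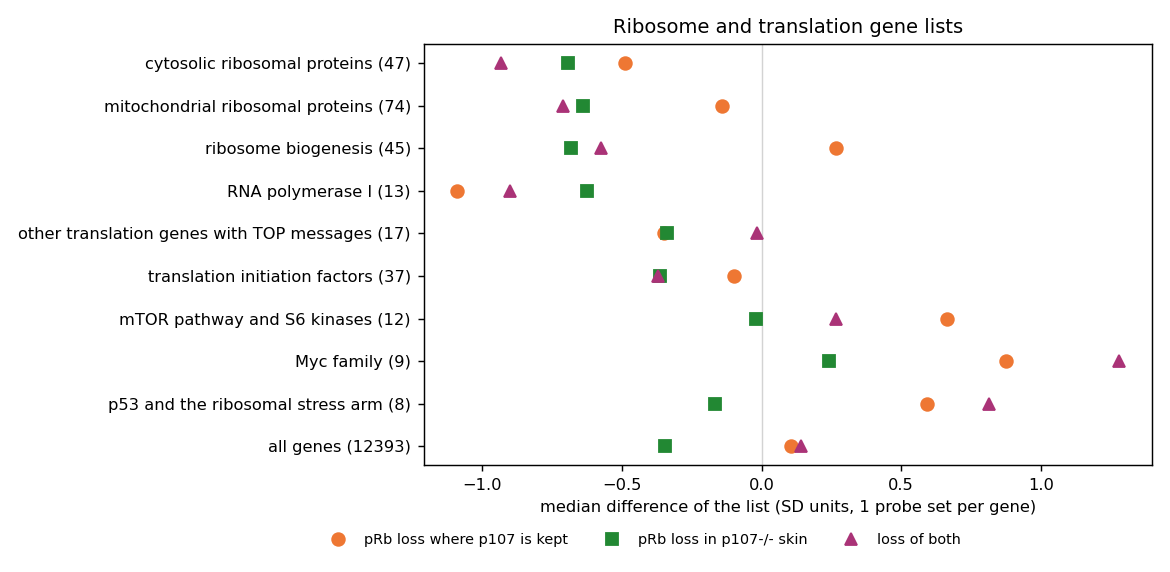
Median difference (horizontal axis, SD units, 1 probe set per gene) of the 47 cytosolic ribosomal protein genes, of 8 related lists and of all 12393 genes for 3 comparisons, with the number of genes in brackets. For loss of both (triangles) cytosolic ribosomal proteins are at -0.93, RNA polymerase I at -0.90, other TOP messages at -0.016 and all genes at 0.14.

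Cell type and growth markers moved across the same arrays. The 17 hair follicle markers had array medians of 1.28 and 1.28 in pRb+/+, 0.39 and 0.37 in pRb-/-;p107+/+, -0.58 and -0.59 in pRb+/+;p107-/- and -1.02 and -1.11 in double-null skin. For loss of both 16 of 17 were negative and 14 fell (limma linear model without moderation). Of all 12393 genes 46.7% were negative, 198 fell and 160 rose in that comparison. The 14 proliferation markers ran the other way, with -1.29 and -0.90 in pRb+/+ and 1.38 and 1.03 in double-null skin, and 12 of 14 were positive. Of these markers 4 rose and 1 fell past the threshold. The 10 fibroblast markers were at -0.01 and -0.21 in pRb+/+ and -0.67 and -1.45 in double-null skin (8 of 10 negative, 2 fell). The 11 keratinocyte markers were at -0.38 and -0.75 against 0.89 and 0.48 (9 of 11 positive, 2 rose). The ribosomal protein probe sets were thus lowest on the arrays where proliferation markers were highest and hair follicle markers lowest. Those arrays were also lowest for the markers of fibroblasts, adipocytes (-0.88 and -1.09), melanocytes (-1.21 and -1.37) and Schwann cells (-0.91 and -1.16). They were highest for the keratinocyte markers, and the other cell type lists had neither pattern. The part of cell makeup in the ribosomal values was not tested.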

How the data were processed

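Expression was measured on 8 Affymetrix arrays of newborn skin. The deposited values are per-probe-set scores: per the submitters' processing notes the authors used RMA, with no version given, and from the values each probe set has mean 0 and SD 1. The sources used here do not give whether log or linear values were standardized, and signal over background cannot be read. Groups came from the sample titles. Symbols came from the platform annotation, and all 99 member probe sets matched a mouse gene table. Genotype means were fitted as a linear model to all 22626 tested probe sets with limma 3.58.1 in R 4.3.3, with 4 residual degrees of freedom and without moderation, because standardization ties each variance to its differences. P-values were adjusted by Benjamini-Hochberg, with a threshold of 0.05. The script was tested on simulated data. No set test was run.

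The members and gene lists were chosen with earlier results of these data known. Probe sets named are those that passed, the 4 most positive and 4 most negative per comparison, a list of well-known genes for loss of both, genes with 3 or more probe sets, and the 3 highest and 3 lowest probe set pairs. In other lists those that passed, or otherwise the smallest p, are named. Where 1 probe set stands for a gene, names ending in _at came first, then _a_at, _s_at and _x_at. The alternatives were limma's moderated test, quantile normalization, array medians subtracted, the replicate number as a block, other choices of probe sets and each array left out.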

Additional observations from a re-analysis of the deposited data

How the results depend on the processing

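The median difference of the ribosomal protein probe sets kept its negative sign for loss of both and for pRb loss (where p107 was kept, in p107-/- skin and averaged) under every alternative run. Calls did not hold. The 3 for loss of both became 0 with the moderated test and with the replicate block, 1 with quantile normalization, 1 with 1 probe set per gene and 0 to 1 with an array left out. The calls for pRb loss in p107-/- skin, the F test, p107 loss averaged and p107 loss in pRb-/- skin became 0 with the moderated test, quantile normalization, array medians subtracted, the replicate block and any array left out. No label says that replicate numbers pair the arrays. Deviations between groups correlated from -0.13 to 0.11 over all probe sets and from -0.20 to 0.10 over the 99. With 2 arrays per genotype this cannot settle whether arrays were paired. The block left the medians as they were (loss of both -1.14). With an array left out, medians ranged from -1.68 to -0.82 for loss of both, -0.98 to -0.40 for pRb loss in p107-/- skin, -0.70 to -0.036 for p107 loss in pRb-/- skin, -0.60 to -0.18 for p107 loss averaged and -0.32 to 0.41 for the interaction. For pRb loss in p107-/- skin the median was -0.41 with quantile normalization and -0.42 with array medians subtracted. Without _x_at and _s_at probe sets the median was -0.54 for pRb loss where p107 was kept, -0.14 for p107 loss in pRb+/+ skin and -0.032, reversed, for the interaction, and the pair agreement was 0.17. With 1 probe set per gene the medians were -0.49 for pRb loss where p107 was kept and -0.022 for p107 loss in pRb-/- skin, and were reversed to 0.16 for p107 loss in pRb+/+ skin, 0.042 for p107 loss averaged and -0.15 for the interaction. Over all genes on that scale the medians of the reversed comparisons were 0.40, 0.22 and -0.44 in the same order. Array medians subtracted gave -0.68 for p107 loss in pRb+/+ skin and 0.58 for the interaction, and quantile normalization 0.37 for the latter. The several-symbol ribosomal probe sets, chosen after seeing the data, had medians of -1.0 for pRb loss where p107 was kept, -0.73 and -0.11 for p107 loss in pRb+/+ and pRb-/- skin, -1.38 for loss of both, 0.48 for the interaction and -0.55 for p107 loss averaged. Added to the 99, these 102 brought the calls to 7 for loss of both, 2 for p107 loss in pRb-/- skin and 6 for p107 loss averaged, 1 of the 6 higher. Of all probe sets 2.94%, 1.37% and 3.04% passed in these comparisons. Of 828 alternatives of 69 named results 826 kept their direction, and the 2 that did not were for pRb loss in p107-/- skin without replicate 1 of the double-null skin: Rpl13a 1433928_a_at ranged from -0.011 to 1.91 and Rps20 1456373_x_at from -0.052 to 1.46. Many of the alternatives could not change a direction. The moderated test and the replicate block leave every difference as it was. Leaving out an array of a genotype outside the comparison does so too. The named results were also chosen as calls or as the largest differences. Of the calls named, 8 in all, 8 were lost with the moderated test and with the block. Where a cause is not given, the cause was not tested. The scores do not give signal over background, and 2 arrays per genotype limit precision.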
